A study of Saccharomyces cerevisiae with 8 samples.

Results

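The mitochondrial ribosome of budding yeast (Saccharomyces cerevisiae) was followed through its nuclear genes, which are named MRPL, MRPS, MRP or RSM followed by a number. The deposited table holds 65 features with such names among 6547, and all 65 were measured well enough to be tested. Of these, 37 encode proteins of the large subunit and 27 proteins of the small subunit. MRP8, the remaining name, is not a known part of the mitochondrial ribosome and is kept because its name matches. A total of 38 genes have a bacterial counterpart, 25 encode proteins found in mitochondrial ribosomes only, and MRP51 was not classed. They lie on 14 chromosomes.

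Mitochondrial ribosomes translate the few messages of the mitochondrial genome, most of which encode membrane subunits of the respiratory chain and the ATP synthase. Nearly all of their proteins are encoded in the nucleus, made in the cytosol and imported, so the organelle's translation depends on nuclear messages made far from it. Because mitochondrial translation serves respiration, yeast on fermentable sugar can live without it.

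Poly-A RNA was sequenced from the wild-type strain WFA72 (WT) and from the strain WFA73, whose genotype is given as mec1. Mec1 is the checkpoint kinase that answers replication stress, and the labels do not say which mec1 allele was used. Both strains were sampled while arrested by the pheromone alpha factor (G1), after release for 1 h into 200 mM hydroxyurea (HU), and after recovery for 30 or 60 min in medium from which the drug had been filtered (R30 and R60). Hydroxyurea inhibits ribonucleotide reductase and so slows DNA synthesis. Each strain and time had 1 library, which makes 8 libraries and no replicates.

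The values are RPM, in which the reads of every library are set to the same total, averaged over windows that cover a gene and 1000 bp on either side. The RPM scale rested on 1596132 (WT HU) to 3935979 reads (mec1 G1), and the genes had 30.4 to 2385.4 reads per window. A value therefore also holds reads of neighbouring genes. When the overlapping windows were solved for each gene's own reads, a median of 54.5% of the value (0 to 98.1%) was left to the gene itself, and 34 of 65 genes kept at least 50%. The separation put MRPL4, MRPL19, MRPL38 and MRPL51 at 0 in 5 or more libraries, so these 4 were not tested after it. Such a 0 is a fitted value and need not mean that the gene had no reads. MRPL19 and MRPL51 overlap a neighbour, with annotated gaps of -113 bases to YNL184C and -323 bases to YPR099C. MEC1 in WT stood at 36.2, 90.3, 35.7 and 38.7 RPM, and in mec1 at 77.1, 124, 83.9 and 76.6 RPM (G1, HU, R30, R60). Reads were thus present in the MEC1 windows of the strain labelled mec1, but these values can also hold reads of neighbouring genes. With the allele not named, they do not check the label. The a-cell receptor gene STE2 was at 199 to 864 RPM and the alpha-cell receptor gene STE3 at 3.37 to 10.9 RPM, and alpha factor acts on a cells.

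Across the time course the genes moved little. In WT their median stood at 75.1, 59.2, 69.1 and 75.0 RPM (G1, HU, R30, R60), and in mec1 at 83.8, 69.9, 70.0 and 70.8 RPM. The median of all features tested stayed between 59.5 and 68.0 RPM over the same libraries. In WT the genes' median was lowest in HU and was back near its G1 level at R60. Taken gene by gene, the median change from G1 to R60 in WT was still -0.11. In mec1 the genes' median stayed near the HU level after the drug was removed. G1 was the highest of the 4 times for 41 of 65 genes in WT (63.1%, against 31.7% of all features) and for 47 in mec1 (72.3%, against 33.8%). HU was the lowest time for 44 genes in WT (67.7%, against 36.7%) and for 29 in mec1 (44.6%, against 29.8%). These orders rest on single libraries and were not tested.

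**Figure D1:**
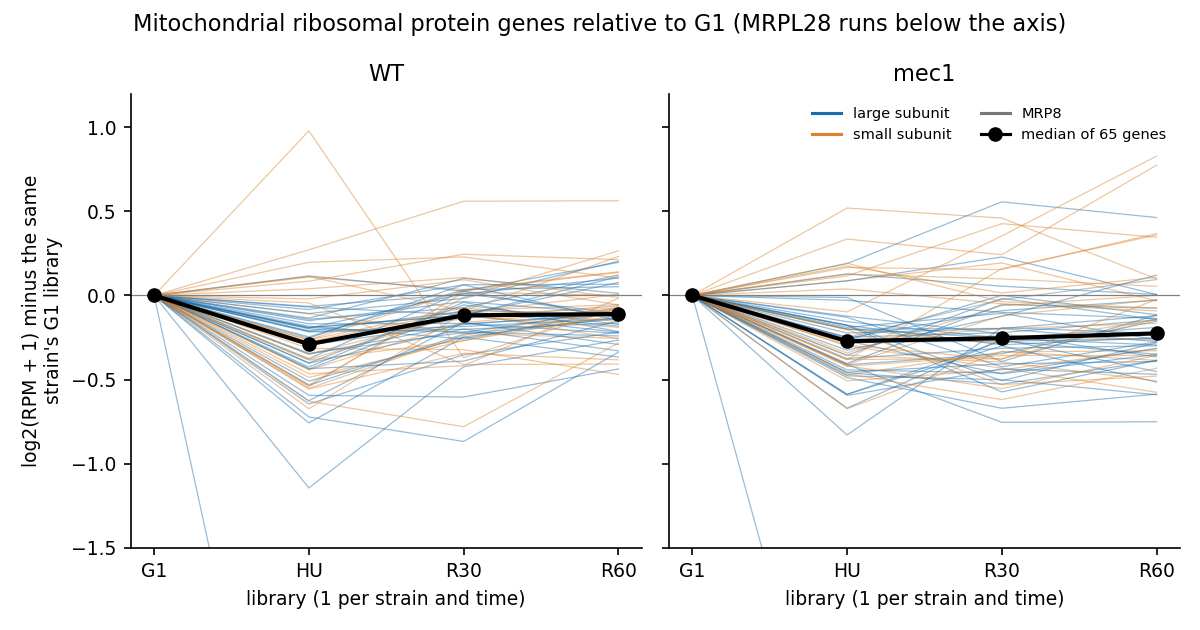
Each thin line is 1 of the 65 genes, as log2(RPM + 1) in a library minus the same strain's G1 library, for WT (left) and mec1 (right); the thick line is the median of the genes. The median was -0.29 in HU and -0.11 at R60 in WT, and -0.27 and -0.23 in mec1; MRPL28 leaves the axis.

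The table's numbers for RSM27, MRPL22 and RSM22 were the highest, with means of 515, 469 and 291 RPM over the 8 libraries. Each of these genes shares windows with a gene of the cytosolic ribosome, RPS0A, RPS3 and RPS27A in turn, and MRPL22 kept 7.45% of its value after separation. MRPL10, MRPL15 and MRPL3 had the lowest numbers, 19.8, 31.8 and 34.4 RPM, and kept 98.1%, 89.4% and 95.8%. Because windows differ in length and hold neighbours, these numbers do not order the genes by transcript abundance.

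The first comparison asked how the messages changed between pheromone arrest and hydroxyurea. No library was taken after release without the drug, so release from pheromone and hydroxyurea cannot be told apart in this change. Most of the genes were slightly lower in HU. The median change of the 65 genes was -0.27 on the log2(RPM + 1) scale, which is a change of -17.1%, with quartiles of -0.43 and -0.17. The median over all 6504 features tested was -0.02. The change was below 0 for 56 genes, and 50 (76.9%) were lower in both strains, against 38.4% of all features. Another 5 (7.69%) were higher in both strains, against 33.5%. The difference was seen in each strain alone, with medians of -0.29 in WT and -0.27 in mec1. In WT 57 of 65 genes were lower, against 54.9% of all features, and in mec1 53 were, against 50%. The medians of all features were -0.05 and 0.00. In bulk libraries scaled to a common total, fewer cells that carry a message and less of that message per cell cannot be told apart. The limma test with Benjamini-Hochberg adjustment called 4 of 65 genes lower (6.15%), beside a background of 4.52% of all features, and 0 higher, beside 4.57%. At an unadjusted p under 0.05, 27 genes were lower (41.5%, against 16.8% of all features) and 0 higher (against 14.3%). The share called after adjustment is near the background, so those calls by themselves set nothing apart. With no replicate cultures, p-values here set a change against how unevenly the strains moved in a model with additive strain and time terms. They do not measure the spread between cultures.

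The 4 genes called lower were MRPL28, MRPL39, MRP51 and MRPL44. MRPL28 encodes a large-subunit protein that bacteria lack. In WT it stood at 498, 26.1, 43.3 and 81.5 RPM, and in mec1 at 392, 37.9, 53.2 and 60.6 RPM. Both G1 libraries were far above the other 6, with no overlap. The fitted change was -3.77 (SE 0.25, adjusted p = 0.001, Benjamini-Hochberg in limma). MRPL28 shares windows with MFA1, which encodes the a-factor pheromone and in WT went from 989 to 37.8 RPM, and in mec1 from 773 to 49.6 RPM, a fitted change of -4.30. After separation MRPL28 in WT stood at 265, 20.2, 40.6 and 74.2 RPM, and in mec1 at 217, 38.8, 51.6 and 56.3 RPM, and the change was -3.05 (adjusted p = 0.013, Benjamini-Hochberg in limma). The separation assumes that a gene's reads lie evenly along it, with none beyond its ends. How much of the G1 value belongs to MRPL28 is therefore not resolved.

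MRPL39, the counterpart of bacterial L33, in WT stood at 147, 86.4, 123 and 114 RPM, and in mec1 at 153, 85.7, 134 and 131 RPM. Its lowest libraries were the HU ones, and those of both strains nearly coincided. The fitted change was -0.79 (SE 0.12, adjusted p = 0.0147, Benjamini-Hochberg in limma). Its neighbour ERG6, which encodes an enzyme of ergosterol synthesis, changed by -0.88 and in WT went from 257 to 139 RPM, and in mec1 from 250 to 136 RPM. MRPL39 kept 16.2% of its value after separation, and the separated change was -1.79 (adjusted p = 0.035, Benjamini-Hochberg in limma).

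MRP51 encodes a small-subunit protein that in yeast acts with the leader sequences of mitochondrial messages. In WT it stood at 157, 107, 133 and 150 RPM, and in mec1 at 172, 107, 136 and 131 RPM. The HU libraries were again the lowest of each strain. Its change of -0.61 (SE 0.13, adjusted p = 0.0345, Benjamini-Hochberg in limma) stood beside -0.70 for the neighbour IDI1, an isoprenoid synthesis gene. MRPL44, a mitochondria-specific large-subunit gene, in WT stood at 132, 87.2, 86.6 and 97.3 RPM, and in mec1 at 139, 102, 101 and 112 RPM. It was as low at R30 as in HU in both strains. Its change was -0.52 (SE 0.12, adjusted p = 0.0417, Benjamini-Hochberg in limma), beside -0.64 for the neighbour YMR226C. After separation the changes of MRP51 and MRPL44 were -0.45 and -0.27, and neither was called (adjusted p = 0.147 and 0.419, Benjamini-Hochberg in limma). All 4 called genes thus lay next to a called neighbour with a larger fall. Without WT G1, WT HU, mec1 G1 or mec1 HU, the calls of MRPL39, MRP51 and MRPL44 were lost, and that of MRPL44 was lost without any 1 of the 8 libraries. Without WT R30 or mec1 R30, that of MRP51 was lost as well.

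The promoters of these 4 genes, from 250 bases before the start codon to 50 bases from it onwards, are shown because they are the genes called together. They were read from the RefSeq copy of the yeast genome (assembly R64), in which all 65 names were matched. Capitals mark the start codon at the same place in each line and any match on either strand to AATTTT (core of the rapid growth element), GATGAG (core of the PAC element), AAAAATTT (core of the RRPE element), CCAAT (the CCAAT box) or ACGCGT (the MCB element). Each match to AAAAATTT also contains AAAATT, which is AATTTT read on the other strand.
MRPL28 (chrIV:1385823-1386122, plus strand): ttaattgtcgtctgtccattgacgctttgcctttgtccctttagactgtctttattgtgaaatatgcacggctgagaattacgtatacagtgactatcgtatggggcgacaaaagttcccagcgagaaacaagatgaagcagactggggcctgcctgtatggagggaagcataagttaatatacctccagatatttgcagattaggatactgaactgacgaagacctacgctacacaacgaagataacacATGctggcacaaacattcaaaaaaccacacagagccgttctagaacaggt
MRPL39 (chrXIII:251467-251766, minus strand): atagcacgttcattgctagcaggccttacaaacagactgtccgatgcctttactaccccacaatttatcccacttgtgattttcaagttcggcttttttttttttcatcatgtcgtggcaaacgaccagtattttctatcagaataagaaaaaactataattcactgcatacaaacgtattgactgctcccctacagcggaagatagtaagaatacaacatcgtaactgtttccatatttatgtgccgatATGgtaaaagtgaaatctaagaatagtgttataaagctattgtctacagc
MRP51 (chrXVI:326378-326677, plus strand): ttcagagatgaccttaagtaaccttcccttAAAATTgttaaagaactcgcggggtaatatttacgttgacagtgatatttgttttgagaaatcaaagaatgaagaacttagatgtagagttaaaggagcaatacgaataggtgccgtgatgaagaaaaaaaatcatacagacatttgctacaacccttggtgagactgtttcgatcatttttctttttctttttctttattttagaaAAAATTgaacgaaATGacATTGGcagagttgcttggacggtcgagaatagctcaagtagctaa
MRPL44 (chrXIII:721354-721653, minus strand): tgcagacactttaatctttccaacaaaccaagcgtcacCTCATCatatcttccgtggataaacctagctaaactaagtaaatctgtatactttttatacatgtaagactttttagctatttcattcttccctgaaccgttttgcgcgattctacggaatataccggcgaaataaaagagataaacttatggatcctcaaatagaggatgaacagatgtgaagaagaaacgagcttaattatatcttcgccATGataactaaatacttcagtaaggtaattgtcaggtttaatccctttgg

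The 4 promoters have no motif in common. MRPL28 and MRPL39 hold none of the 5, MRP51 holds AATTTT and CCAAT, and MRPL44 holds GATGAG. The CCAAT match of MRP51 lies after the start codon, within the coding sequence. Over all 65 genes, AATTTT was found in 27 promoters (41.5%, against 51.7% of 6001 promoters of protein-coding genes), GATGAG in 11 (16.9%, against 20.4%) and AAAAATTT in 5 (7.69%, against 14.1%). CCAAT was found in 27 (41.5%, against 43.3%) and ACGCGT in 0 (against 3.07%). None of these letters was thus more frequent before the genes than before genes at large, and a match is not a binding site. The upstream neighbour was transcribed away from the gene in 39 of 65 cases (60%, against 51.7% of protein-coding genes). The genes were short, with a median length of 714 bp (213 to 1887 bp) against 1200 bp for all protein-coding genes.

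Both subunits showed the shift. Of the 37 large-subunit genes 33 (89.2%) were lower in both strains, with a median of -0.29 and 3 called. Of the 27 small-subunit genes 16 (59.3%) were, with a median of -0.23 and 1 called. Over all features, 38.4% were lower in both strains and 4.52% were called lower. The difference between the subunits was not tested. MRPL38 (-0.61, SE 0.16) and MRP13 (-0.51, SE 0.15) were close to the called genes in size without being called, and are named after their values were seen. Among the 5 genes higher in both strains, all were small-subunit genes: MRP10 (0.11), MRPS16 (0.12), MRPS18 (0.18), RSM23 (0.04) and MRPS9 (0.66). After separation MRPS16 alone stayed higher in both strains (0.13), and the other 4 were lower in both, with MRP10 at -0.05, MRPS18 at -0.13 and RSM23 at -0.24. MRPS9, the counterpart of bacterial S9, in WT stood at 84.6, 168, 65.3 and 80.2 RPM, and in mec1 at 72.9, 92.3, 86.4 and 125 RPM. WT HU stood above all other libraries. Its neighbour ADH5, an alcohol dehydrogenase gene, was at 87.9 and 377 RPM in WT and at 60.0 and 215 RPM in mec1 (G1 and HU), and after separation the change of MRPS9 was -0.29.

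**Figure D2:**
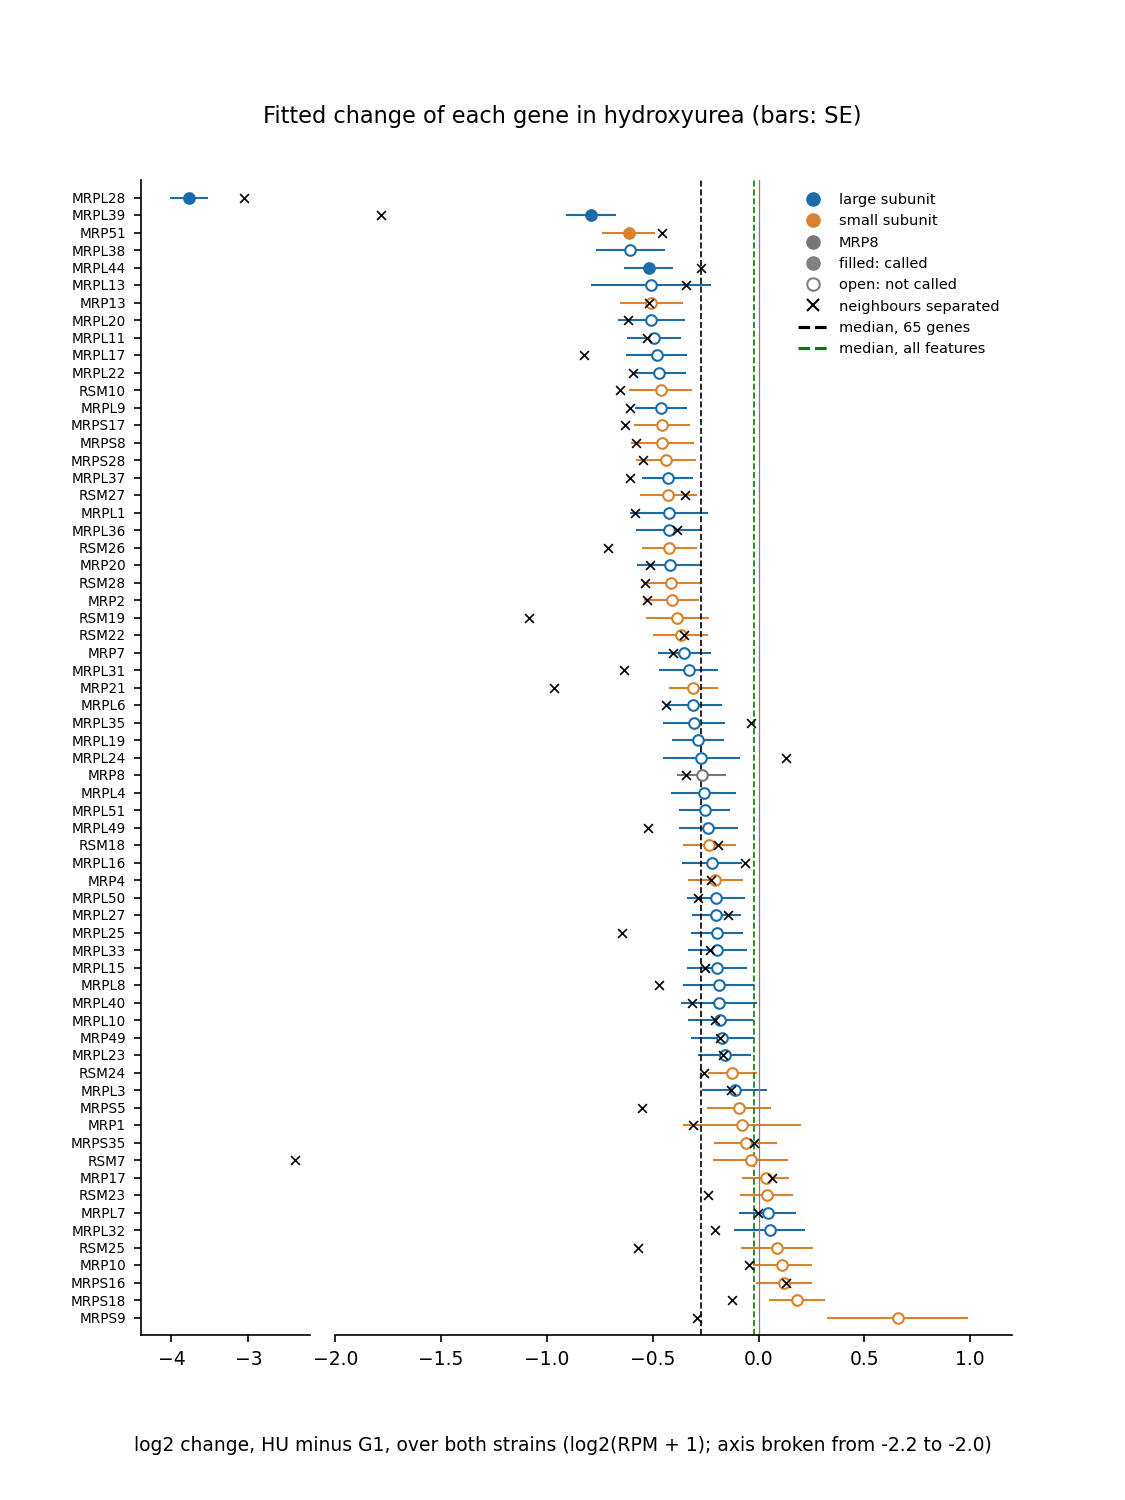
Fitted log2 change from G1 to HU for each of the 65 genes over both strains, with its SE, on a broken axis; filled points were called, crosses give the change after neighbours were separated, and dashed lines are the medians of the 65 genes (-0.27) and of all features (-0.02). Most points lie between MRPL39 (-0.79) and MRPS18 (0.18), with MRPS9 (0.66) and MRPL28 (-3.77) apart.

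The shift was also seen with the neighbours' reads set aside. After separation, 61 genes could be followed, 50 of them (82.0%) were lower in both strains, and the median change was -0.38. Leaving out the 8 genes next to a called feature with a larger change in the same direction gave a median of -0.25 over 57 genes, of which 0 were called, with 43 lower in both strains. The 34 genes that kept at least 50% of their value had a median of -0.23 with 27 lower in both strains.

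Other genes of mitochondrial gene expression, from lists written out by function, were less uniform. Mitochondrial ribosomal proteins that carry other names (13 in the table) had a median change of 0.01 in HU with 0 called. Of these 13, 5 (38.5%) were lower in both strains, against 38.4% of all features. The 15 genes for charging mitochondrial tRNAs had a median of -0.01, with MSR1, the mitochondrial arginyl-tRNA synthetase gene, called lower (-1.66, SE 0.33). The 7 translation factors had a median of -0.16 and the 5 genes of mitochondrial RNA synthesis and turnover one of -0.17, each with 0 called. Among 8 assembly genes, with a median of -0.16, RMD9, known for keeping mitochondrial messages stable, was called lower (-0.65, SE 0.14). Of 19 genes for activators of single mitochondrial messages and for membrane insertion, with a median of -0.11, 4 were called lower: PET494 (-2.46), PET111 (-0.70), AEP2 (-0.59) and CBP6 (-0.56). PET494 activates translation of the COX3 message, and in WT it went from 317 to 49.5 RPM, and in mec1 from 283 to 57.8 RPM. Of these 6 genes, PET494, PET111, MSR1 and RMD9 lay next to a called gene with a larger fall (AGA1, COX7, HXT4 and MLC1), and after separation PET494 alone was called (-2.75, adjusted p = 0.0382, Benjamini-Hochberg in limma). Before separation their adjusted p-values were between 0.001 and 0.047 (limma with Benjamini-Hochberg adjustment).

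The respiratory chain and the ATP synthase also hold proteins encoded in the nucleus, and the changes of those genes were larger. Of 34 nuclear genes of the respiratory chain and ATP synthase, 17 were called lower in HU and the median change was -0.68. RIP1 and QCR7, both of the cytochrome bc1 complex, changed by -1.25 and -1.22 (adjusted p = 0.018 and 0.007, Benjamini-Hochberg in limma), and 2 of the 17 lay next to a called gene with a larger fall. Of 132 genes of the cytosolic ribosome, 15 were called lower and the median was -0.40, with 126 lower in both strains and 5 of the 15 beside a called gene with a larger fall. The median of the mitochondrial ribosomal protein genes lay between those of all features and of the cytosolic ribosomal protein genes, and the lists were not tested against each other.

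**Figure D3:**
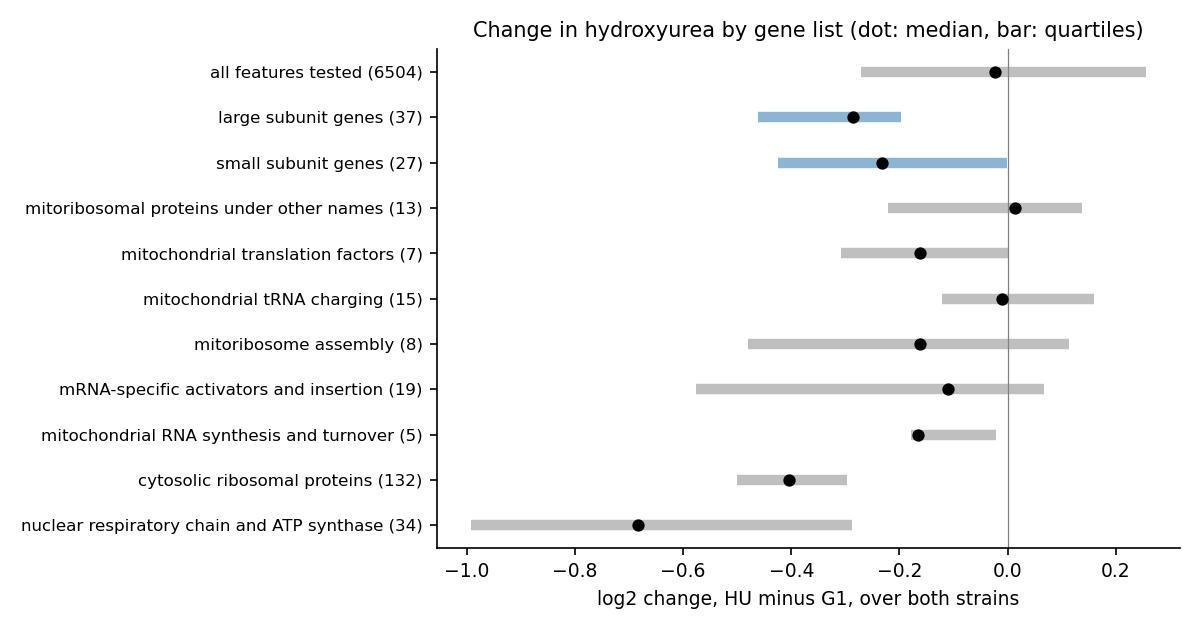
Median (dot) and quartiles (bar) of the fitted log2 change from G1 to HU for the large- and small-subunit genes, other lists of mitochondrial gene expression, the cytosolic ribosome, the respiratory chain and all features; the number of genes is in brackets. The medians were -0.29 and -0.23 for the subunits, -0.40 for the cytosolic ribosome and -0.68 for the respiratory chain.

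After hydroxyurea was removed most of the genes were slightly higher again in WT. At R30 the median change from HU was 0.12 over both strains, against 0.04 for all features, and at R60 it was 0.13 against 0.05. These medians leaned on single libraries. At R30 the median was 0.05 without WT HU (0.03 for all features) and 0.04 without WT R30 (0.06 for all features). At R60 it was 0.08 without WT HU and 0.22 without mec1 R60 (0.04 for all features in each). Among genes keeping at least 50% of their value the medians were 0.06 at R30 and 0.08 at R60. In both strains 33 genes (50.8%) were higher at R60 than in HU, against 35.5% of all features, and 21 (32.3%) were higher in WT and lower in mec1, against 19.4%. In limma with Benjamini-Hochberg adjustment 0 of 65 genes were called in either direction at either time. The background at R30 was 0.277% of features higher and 0.584% lower, and at R60 it was 0.292% and 0.661%. At an unadjusted p under 0.05, 5 genes were higher (7.69%, against 8.66% of all features) and 1 lower (against 8.1%) at R30. At R60, 9 were higher (13.8%, against 9.55%) and 1 lower (against 7.26%). In WT alone the median change from HU to R60 was 0.22, with 11 of 65 genes lower against 45.1% of all features, and in mec1 it was 0.06, with 26 lower against 43.1%. The direction of the mec1 median depends on the genes kept, since it was -0.06 among genes keeping at least 50% of their value, and quantile normalization took it to 0.01. The change from HU to R60 was more negative or less positive in mec1 than in WT for 48 of 65 genes (median of mec1 change minus WT change -0.13), against 50.7% of all features. This difference between strains rests on single libraries and was not tested. The same subtraction gave medians of -0.21 for the cytosolic ribosome and -0.27 for the respiratory chain. Each of these WT changes uses WT HU, whose RPM scale rests on the smallest number of reads.

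The largest fitted changes from HU to R60 were those of MRPL28 (1.14, SE 0.25), MRPS17 (0.77, SE 0.13), RSM25 (0.61, SE 0.17) and MRPL39 (0.50, SE 0.12). MRPS17, a small-subunit gene with a bacterial counterpart, in WT stood at 33.9, 23.2, 33.6 and 40.9 RPM, and in mec1 at 41.9, 31.9, 46.9 and 54.0 RPM. In both strains HU was lowest and R60 highest. It kept 85.3% of its value after separation, and its adjusted p was 0.059 (limma with Benjamini-Hochberg adjustment). RSM25, a mitochondria-specific small-subunit gene, in WT stood at 97.9, 118, 145 and 145 RPM, and in mec1 at 89.1, 83.2, 114 and 159 RPM. Its neighbour LYS12, a lysine synthesis gene, in WT went from 269 to 443 RPM, and in mec1 from 213 to 501 RPM between G1 and R60. RSM24 (-0.32), MRPS9 (-0.31), MRP4 (-0.21) and MRPL23 (-0.14) had the lowest changes. RSM24 in WT stood at 110, 107, 82.4 and 82.5 RPM, and in mec1 at 102, 88.1, 70.0 and 72.6 RPM, so both recovery libraries of each strain were below HU. It shares windows with HMO1, which was at 195, 206, 127 and 122 RPM in WT, and after separation its change was 0.06.

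The changes from HU to R30 subtract the same HU libraries as those from HU to R60, so the values are not independent. At R30, MRPL28 (0.59), MRPL39 (0.57), MRPS17 (0.53) and RSM25 (0.37) had the highest fitted changes from HU. The lowest were those of MRPS9 (-0.72), RSM24 (-0.35), MRPL3 (-0.18) and MRPL38 (-0.16). MRPL39 shares windows with ERG6, which was higher at R30 than in HU (WT 212 against 139 RPM, mec1 244 against 136 RPM). After separation MRPL39 at R30 was not above HU in WT (11.5 against 13.0 RPM), but it was in mec1 (28.5 against 20.7 RPM). Its separated values at R60 were above HU in both strains (WT 23.8 RPM, mec1 52.9 RPM). Between R30 and R60 the median change was 0.04, and it lay between -0.01 (without mec1 R30) and 0.07 (without WT R30) when 1 library was left out. Here the limma test with Benjamini-Hochberg adjustment called 0 of 65 genes and 0 of all 6504 features (0% in either direction). At an unadjusted p under 0.05, 1 gene was higher (against 2.95% of all features) and 0 lower (against 1.06%). The changes ran from -0.19 for MRPL17 and MRP17, -0.18 for MRPL24 and -0.17 for MRPL6 to 0.31 for MRPL38, 0.41 for MRPS9, 0.43 for RSM10 and 0.54 for MRPL28.

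The end of the time course was also set against its start. At R60 the median change from G1 was -0.15, against 0.02 for all features, and 39 of 65 genes (60%) were lower than in G1 in both strains, against 33.2%. The single-strain medians were -0.11 in WT and -0.23 in mec1. The 6 genes higher in both strains (9.23%, against 33.1%) were all small-subunit genes, among them RSM25 (0.70), MRPS17 (0.31) and MRP10 (0.24). After separation 3 of the 6 stayed higher in both strains, and RSM25 changed by 0.10, MRPS17 by 0.20 and MRP10 by -0.02. Of the 65 genes 1 was called, MRPL28 (-2.63, SE 0.25, adjusted p = 0.0063, Benjamini-Hochberg in limma), beside a background of 0.923% lower and 0.661% higher. MFA1 beside it changed by -2.94, and after separation MRPL28 changed by -1.88 (adjusted p = 0.08, Benjamini-Hochberg in limma). At an unadjusted p under 0.05, 12 genes were lower (18.5%, against 8.76% of all features) and 1 higher (against 11%). MRPL38 (-0.46), MRPL1 (-0.45) and RSM24 (-0.44) followed, and MRPS9 (0.35) was among the highest, with WT at -0.08 and mec1 at 0.77. MRPL38 kept 0% of its value after separation.

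Whether the genes differed between the strains was compared over the 4 times. The median difference, mec1 minus WT, was 0.06, against 0.08 for all features. Quantile normalization moved the median of all features to -0.03 and that of the genes to -0.07, so the sign of both depends on the scaling, and under either scaling the genes lay slightly below all features. Without WT HU or mec1 HU the median of the genes was 0.02, and without either G1 library it was 0.03. In limma with Benjamini-Hochberg adjustment 0 of 65 genes were called, beside 0.169% of features higher and 0.108% lower in mec1, and at an unadjusted p under 0.05, 11 genes were higher (16.9%, against 19.9% of all features) and 5 lower (7.69%, against 7.1%). Without WT G1 or without mec1 G1, 3 genes were called: MRPL13 and MRPS35 higher and MRPL22 lower. Those fits called 8.35% and 8.27% of all features higher and 1.98% and 1.97% lower. At single times the medians were 0.09 in G1, 0.12 in HU, 0.02 at R30 and 0.01 at R60. The median level of all features was also higher in mec1 than in WT at each time. In WT it was 61.8, 59.5, 61.1 and 62.2 RPM, and in mec1 65.5, 65.3, 66.8 and 68.0 RPM (G1, HU, R30, R60). A positive median of the genes in G1 or HU is therefore not particular to them. Over the same libraries the cytosolic ribosomal protein genes had a median of -0.29, with 110 of 132 (83.3%) lower in mec1 at every time, against 9.86% of all features. Of the 65 mitochondrial ribosomal protein genes 6 (9.23%) were lower at every time. Another 19 (29.2%) were higher at every time, against 25.7% of all features.

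The largest differences were those of MRPL13 (0.77, SE 0.20), MRPS35 (0.58, SE 0.11), MRP1 (0.52, SE 0.20) and MRPS17 (0.40, SE 0.09), with adjusted p of 0.10 to 0.16 (limma with Benjamini-Hochberg adjustment). MRPL13, a mitochondria-specific large-subunit gene, in WT stood at 65.8, 29.2, 48.8 and 54.6 RPM, and in mec1 at 79.0, 86.4, 82.1 and 79.4 RPM. Every mec1 library was above every WT library. MRPS35, a mitochondria-specific small-subunit gene, in WT stood at 61.4, 49.7, 56.3 and 53.7 RPM, and in mec1 at 78.9, 89.1, 79.7 and 85.0 RPM, again with no overlap. MRPL22 (-0.34), RSM27 (-0.25), RSM22 (-0.25) and MRP4 (-0.24) were lowest, and the first 3 share windows with cytosolic ribosomal protein genes. MRP13 and MRPL24 do so too, with RPL11B and RPL36A. MRP13 was lower in mec1 than in WT at R30 and R60 (139 and 140 against 183 and 180 RPM). MRPL24 was higher in mec1 in HU, at R30 and at R60 (72.7, 80.3 and 68.7 against 44.6, 62.0 and 56.5 RPM). After separation the difference was 0.13 for MRPL22, -0.23 for RSM27 and -0.27 for RSM22.

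The change from G1 to HU differed most between the strains for MRPL13 and MRP1. MRPL13 changed by -1.14 in WT (95% interval for counting error -1.61 to -0.67) and by 0.13 in mec1 (-0.12 to 0.37), a difference of 1.27 (0.74 to 1.80). MRP1, a mitochondria-specific small-subunit gene, in WT stood at 109, 67.9, 101 and 109 RPM, and in mec1 at 113, 163, 156 and 121 RPM. Its changes were -0.67 in WT and 0.52 in mec1, a difference of 1.19 (0.82 to 1.57). The strains were close in G1 and at R60 and apart in HU and at R30. Their neighbours showed the same order of strains in HU. MEH1 and RSC4 beside MRPL13 went in WT from 85.3 to 36.5 and from 77.8 to 40.3 RPM, and in mec1 from 101 to 111 and from 80.3 to 104 RPM. SVF1 beside MRP1 in WT went from 162 to 91.8 RPM, and in mec1 from 173 to 333 RPM. After separation the changes in WT and mec1 were -0.85 and 0.17 for MRPL13 and -0.83 and 0.21 for MRP1.

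The next largest differences were those of MRPL28 (0.87), MRPL24 (0.71) and MRPS35 (0.47). The smallest were those of MRPS9 (-0.64), MRP20 (-0.50), RSM25 (-0.37), MRPS5 (-0.36) and MRPL49 (-0.34). The intervals of the last 2 held 0. In all, 4 genes were past 1.5-fold above and 1 below 0, against 11.2% and 6.07% of all features. The median of the 65 differences was 0.01, as it was over all features.

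**Figure D4:**
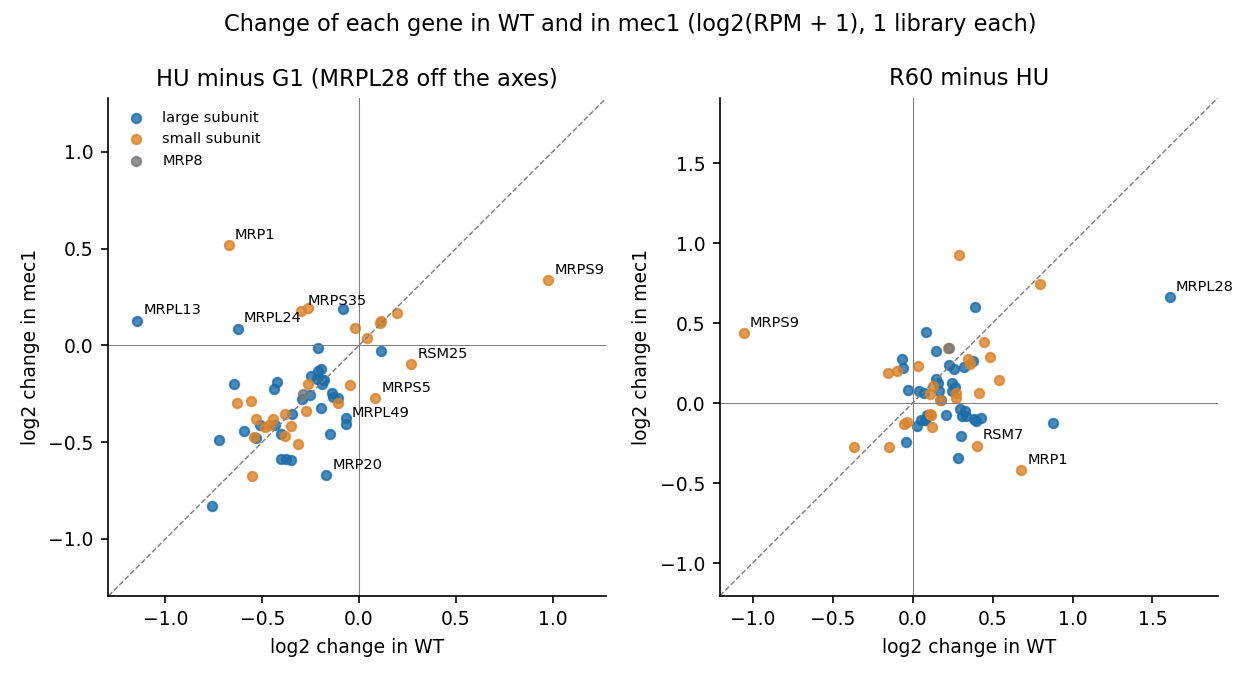
Log2 change of each gene in WT (horizontal) and in mec1 (vertical), from G1 to HU (left, 64 genes, MRPL28 off the axes) and from HU to R60 (right, 65 genes); each change compares 1 library with another, and the dashed line marks equal changes. On the left most genes lie at the lower left, with MRPL13 and MRP1 above the line, and on the right 21 genes were higher in WT and lower in mec1.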

How the data were processed

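Per the submitters' processing notes, reads were aligned with BWA to sacCer3, with no version or counting tool given. The deposited table's header names log2 RPKM, but its values are not on a log scale and, multiplied by the window number, they fall on whole steps of 1 size per library. They were therefore read as RPM averaged by the authors over windows, and the window rule matched 6326 of 6547 features (96.6%) and all 65 genes. Features had to reach 1 RPM in 2 libraries or more, and the 6504 that did were fitted as log2(RPM + 1) in limma 3.58.1 (R 4.3.3) with additive strain and time terms, a mean-dependent prior, 3 residual and 3.82 prior degrees of freedom, and two-sided p-values adjusted by Benjamini-Hochberg and called under 0.05. The test was tried on simulated data first. Neighbours were separated by non-negative least squares per chromosome.

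Intervals at 95% take mean reads per window as counts, cover counting error only, and ignore that reads carry no molecular identifiers. The table's coordinates differ from those of the RefSeq R64 assembly, so promoters were located by gene name in RefSeq. The genes named were those called in each contrast (or, with fewer than 4, the 4 highest and 4 lowest), the 5 largest and 5 smallest strain differences in HU, the 3 highest and lowest by mean, and called list genes. The genes and lists were chosen with earlier results of these data known.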

Additional observations from a re-analysis of the deposited data

Results flagged for a closer look

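In 3 genes the strains moved, before separation of neighbours, in opposite directions, each by more than counting error, and since each change compares 1 library with another the difference was not tested. MRP1 was lower in HU than in G1 in WT (-0.67) and higher in mec1 (0.52), a difference of 1.19, and after its neighbours were separated the changes were -0.83 and 0.21. From HU to R60 it was higher in WT (0.68) and lower in mec1 (-0.42), a difference of -1.10, but after separation the changes were 1.04 and -0.04. MRPS9 was lower at R60 than in HU in WT (-1.06) and higher in mec1 (0.44), a difference of 1.49, and after separation the changes were -0.31 and 0.31. RSM7, the counterpart of bacterial S7, was higher at R60 than in HU in WT (0.40) and lower in mec1 (-0.27), a difference of -0.67. After separation the changes of RSM7 were 3.13 and -0.05, and it was at 4.8 RPM in WT HU and at 39.3 RPM in mec1 HU.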

How the results depend on the processing

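The direction of the median change held under every alternative for HU against G1, and MRPL28 was called lower in HU under each alternative that kept it among the genes. The number of genes called in HU against G1 was 4; it was 2 in limma without the mean-dependent prior, 1 in a fit restricted to the 2 times compared, 1 to 3 when 1 library at a time was left out, 2 with neighbours separated, and 0 without the genes next to a called feature with a larger change or among genes keeping at least 50% of their value. The median of -0.27 became -0.31 to -0.23 when 1 library was left out, -0.38 with neighbours separated, -0.25 without those genes and -0.23 among genes keeping at least 50%. For R60 against R30 the median of 0.04 became -0.0108 to 0.0726 when 1 library was left out and 0.0665 with neighbours separated. The single call for R60 against G1 became 0 with neighbours separated, without MRPL28 and MRP8, without genes next to a larger called change, and among genes keeping at least 50%. For R60 against HU 1 gene was called in the restricted fit. For mec1 against WT, 0 to 3 genes were called when 1 library was left out, and quantile normalization took the median to -0.0657. For most of these alternatives the share of all features called is not given here. Fits with 1 library left out had 2 residual degrees of freedom and the restricted fit had 1, against 3 in the main fit. A lower count therefore cannot be read as particular to these genes. The cause of these moves was not tested. Restricting to genes keeping at least 50% of their value and leaving out MRPL28 with MRP8 were chosen after seeing the data, as were all alternatives for the share lower in both strains (75.4% to 82.0%). No paired analysis was possible because each strain and time had 1 library and the labels give no replicate numbers; the strain term of the model already compares times within each strain. With 1 library per condition, culture-to-culture spread is unknown, and changes the size of the median lie inside the counting interval of a typical gene in WT (half-width 0.36).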
